A study of Mus musculus with 4 samples.

Results

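The nuclear genes for respiratory complexes II to V were examined by RNA-seq in 4 libraries of hematopoietic stem cells sorted from mouse bone marrow. Members were the protein-coding genes whose symbol is Sdha, Sdhb, Sdhc, Sdhd, Cyc1 or Cycs, or begins with Uqcr, with Cox4 to Cox8, or with Atp5. The deposited table holds 44 of them among its 12390 genes: 4 of complex II, 9 of complex III, cytochrome c, 13 of complex IV and 17 of complex V. Another 6 annotated genes fit the same names (Cox6a2, Cox7a1, Cox7b2, Cox8b, Cox8c and another gene named Atp5o) and are not analysed here. The rule uses names and not measured values.

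The 2 control libraries came from Ddx21 fl/fl mice, whose Ddx21 alleles are flanked by loxP sites but carry no Cre. The 2 knockout libraries came from Ddx21 fl/fl mice that also carried CAG-CreERT2, a Cre recombinase that tamoxifen activates and that the CAG promoter drives broadly, not only in blood cells. The sources used here give neither tamoxifen dose and timing nor the age of the mice, and do not say that the 2 libraries of a group are separate animals. The p-values then measure only the spread between these libraries, which may be technical. Cells were gated as Lin-Sca-1+c-Kit+CD48-CD150+, and polyadenylated RNA was amplified with a Smart-seq kit for small inputs.

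Oxidative phosphorylation passes electrons from complex II, the succinate dehydrogenase of the citric acid cycle, through ubiquinone to complex III, then through the small soluble protein cytochrome c to complex IV, which reduces oxygen. Complexes III and IV pump protons across the inner mitochondrial membrane, and complex V, the ATP synthase, lets them flow back and makes ATP. Complex II is encoded wholly in the nucleus, whereas complexes III, IV and V combine nuclear subunits with a few encoded by mitochondrial DNA. Hematopoietic stem cells are known for low respiration at rest and for raising it as they divide or differentiate.

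The libraries held 43198649 to 62853208 recovered reads, and limma, on log2(RPKM + 1) with Benjamini-Hochberg adjustment over the 11742 genes averaging 1 RPKM or more, called 391 of these higher (3.33%) and 101 lower (0.86%) in the knockout libraries at an adjusted p under 0.05. Ddx21, the targeted RNA helicase gene, stood at 11.0 and 12.1 RPKM in control and 6.20 and 6.60 RPKM in knockout. Both knockout values were lower, but the log2 fold change of -0.76 (SE 0.30) did not pass the threshold (adjusted p = 0.158). By voom on the recovered reads, with the TMM-type rescaling described below, the adjusted p was 0.0314. Reads over the floxed exons were not counted apart from those over the remaining exons. The sort markers Ly6a (Sca-1, 83.2 to 165 RPKM), Kit (44.0 to 64.5 RPKM) and Slamf1 (CD150, 3.85 to 10.3 RPKM) were present in every library. Each lay above both controls in both knockout libraries, as did 55.5% of all tested genes. Cd48 was present too, at 20.7 to 32.4 RPKM in a CD48-negative gate, above Slamf1 in every library. A list of 8 CD48-positive progenitor markers took 6.04% and 6.37% of reads in control and 4.54% and 3.07% in knockout. For 10 neutrophil and monocyte genes it was 1.96% and 1.92% in control and 1.26% and 0.802% in knockout. The deposited values are shifted against each other: the median log2 fold change over all tested genes was 0.31, and it was 0.01 after TMM-type rescaling, which trims extreme genes before it equalizes the libraries. Changes below are therefore set beside that median, and fewer cells of a type and less RNA per cell cannot be told apart in such bulk samples.

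All 44 genes passed the filter. The complex IV subunit gene Cox6b2 alone was called, higher in the knockout libraries, while 0 were called lower and 43 were not called, against the 3.33% and 0.86% of all genes. The remaining genes formed a narrow band: their log2 fold changes ran from -0.34 for Cycs to 0.58 for Cox4i2, with 31 of the 44 below 0 and a median over the 44 of -0.08. Of the 44, 41 lay below the median of all tested genes, and after rescaling the median of the 44 was -0.43 against 0.01, with 41 of the 44 below 0; 10 genes that were positive in the deposited scaling then turned negative. Both knockout libraries lay above both controls for 6 of the 44, against 55.5% of all tested genes, and below both for 18 of the 44, against 7.38%.

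Abundant genes as a whole lay lower than scarce ones, and these genes are abundant. The median of their mean levels was 181 RPKM, and 40 of them exceeded 50 RPKM. Among the 1314 tested genes averaging 50 RPKM or more the median log2 fold change was -0.0037, with 354 above (26.9%) and 324 below (24.7%) both controls. The 40 respiratory genes of that level had a median of -0.08, with 4 above and 17 below. Among the 349 genes of at least 200 RPKM the median was -0.14, and 18 of the respiratory genes reached that level with a median of -0.10. At 200 RPKM and more their median was thus no lower than that of other genes of the level. The graph of log2 fold change against level shows this. After rescaling the median was -0.36 over the 1314 genes and -0.43 over the 40. At 200 RPKM and more it was -0.50 over the 349 genes and -0.46 over the 18. In the deposited scaling 89.2% of the 1314 genes and 97.5% of the 40 lay below the median of all tested genes.

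**Figure D1:**
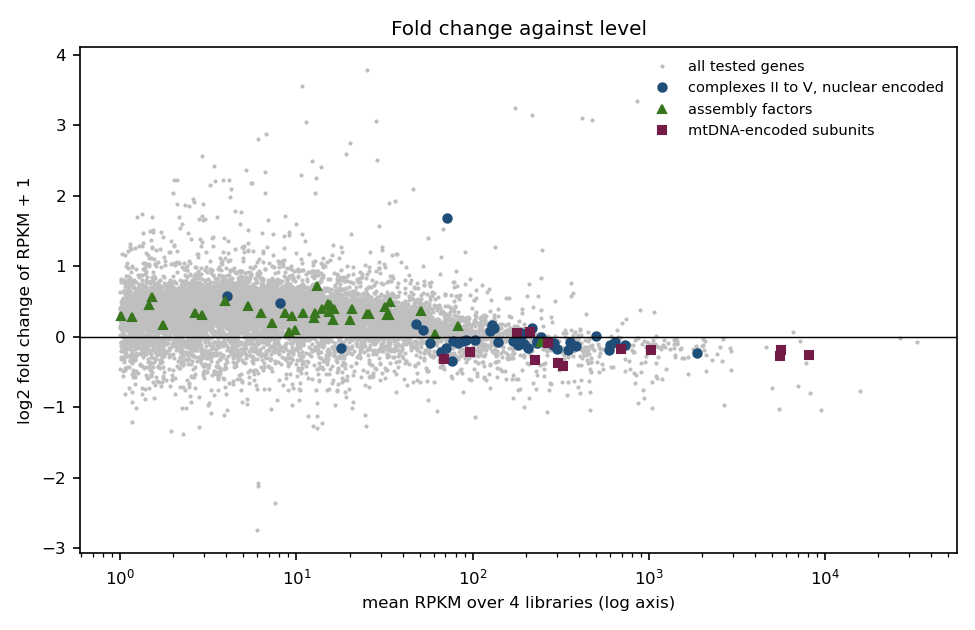
Log2 fold change of RPKM + 1 (knockout minus control, y axis) against mean RPKM over the 4 libraries (log x axis) for all 11742 tested genes (grey dots), the 44 nuclear genes of complexes II to V (blue circles), 37 assembly factors (green triangles) and 13 subunits encoded by mitochondrial DNA (purple squares). The grey cloud drops from a median of 0.31 over all genes to -0.14 at 200 RPKM and more, where many blue circles lie; the lone high blue circle is Cox6b2 at 1.69.

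In the deposited scaling the genes' own replicates were close. The median gap between the 2 control libraries was 0.0531 on the log2 scale over the 44 genes and 0.131 over all tested genes. Between the 2 knockout libraries it was 0.136 and 0.391. These gaps include the shift between libraries. The median of all tested genes against the control mean was 0.12 in knockout replicate 1 and 0.50 in knockout replicate 2. Gaps after rescaling were not computed. Knockout replicate 2 carried most of the difference: the median over the 44 genes against the control mean was -0.02 in knockout replicate 1 and -0.12 in knockout replicate 2. The 44 genes together took 1.536% and 1.549% of the recovered reads in control and 1.51% and 1.357% in knockout. Neutrophil and monocyte markers (7 of 10 called lower) and markers of CD48-positive progenitors (5 of 8 called lower, 1 higher), which took 6.04% and 6.37% of reads in control and 4.54% and 3.07% in knockout, were also lowest in knockout replicate 2; their part in this share was not tested.

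Complex II, which oxidizes succinate, had the highest median of the 4 complexes, at 0.09, and summed to 531 and 520 RPKM in control and 528 and 556 RPKM in knockout. Sdha, the flavoprotein that carries the active site, was its most abundant member, at 190 and 184 RPKM in control and 185 and 193 RPKM in knockout. These values overlap (log2 fold change 0.01, SE 0.17, adjusted p = 0.967). The SEs come from the trend of spread over all genes and not from a gene's own replicates. Sdhc, a membrane anchor, stood at 46.8 and 43.2 RPKM in control and 50.5 and 51.4 RPKM in knockout, above both controls but not called (0.18, SE 0.20, adjusted p = 0.558). Sdhb, the iron-sulfur subunit, also lay above both controls (0.17), and Sdhd, the other anchor, lay below both (-0.05), each by less than its SE. After rescaling the complex II median was -0.26, with Sdha at -0.34, Sdhb at -0.18 and Sdhc at -0.17.

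Complex III, the ubiquinol to cytochrome c reductase, had a median of -0.07 and summed to 1940 and 1910 RPKM in control and 1921 and 1803 RPKM in knockout. Uqcr11, a small subunit, was the most abundant at 372 and 364 RPKM in control and 346 and 350 RPKM in knockout (-0.08, SE 0.16, adjusted p = 0.735). The core subunit gene Uqcrc1 had the lowest fold change, with 322 and 318 RPKM in control and 288 and 281 RPKM in knockout (-0.17, SE 0.16, adjusted p = 0.511). Both lay below both controls in both knockout libraries, as did Uqcrq. The other core subunit gene, Uqcrc2, had the highest, with 131 and 121 RPKM in control and 137 in each knockout library (0.13, SE 0.17, adjusted p = 0.621), and it turned to -0.23 after rescaling. Uqcrc1 and Uqcrc2 encode the paired core proteins of a single enzyme, and each of the differences was about the size of its trend-based SE or smaller. Uqcrfs1, the Rieske iron-sulfur protein, Uqcrh, the hinge protein, Cyc1, the cytochrome c1 heme subunit, Uqcrb and Uqcr10 overlapped between the groups, from -0.11 for Cyc1 to 0.12 for Uqcrh (-0.23 after rescaling).

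Cycs, the somatic cytochrome c that carries electrons between complexes III and IV and that triggers caspase activation when it leaves the mitochondrion, had the lowest fold change of the 44. It stood at 81.7 and 89.6 RPKM in control and 75.3 and 60.2 RPKM in knockout, with means of 85.7 ± 5.58 and 67.7 ± 10.7 RPKM (SD, n = 2 each). Both knockout values lay below both control values. The difference was -0.34 (SE 0.18, adjusted p = 0.326) and was not called. Of the 50-base stretches in its longest transcript, 28.5% also occur in transcripts of other annotated genes, many of them processed copies. These made 79 combinations of gene and transcript type. Its reads could therefore have been split or dropped in counting.

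Complex IV, cytochrome c oxidase, had a median of -0.08 and summed to 3680 and 3575 RPKM in control and 3675 and 3327 RPKM in knockout. Its most abundant nuclear subunit gene was Cox8a, at 759 and 758 RPKM in control and 773 and 639 RPKM in knockout (-0.11, SE 0.16, adjusted p = 0.648). Cox5b, Cox6b1, Cox6c, Cox7a2 and Cox7b lay below both controls in both knockout libraries, none of them called. Cox5a and Cox7c overlapped, at -0.16 and -0.05.

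**Figure D2:**
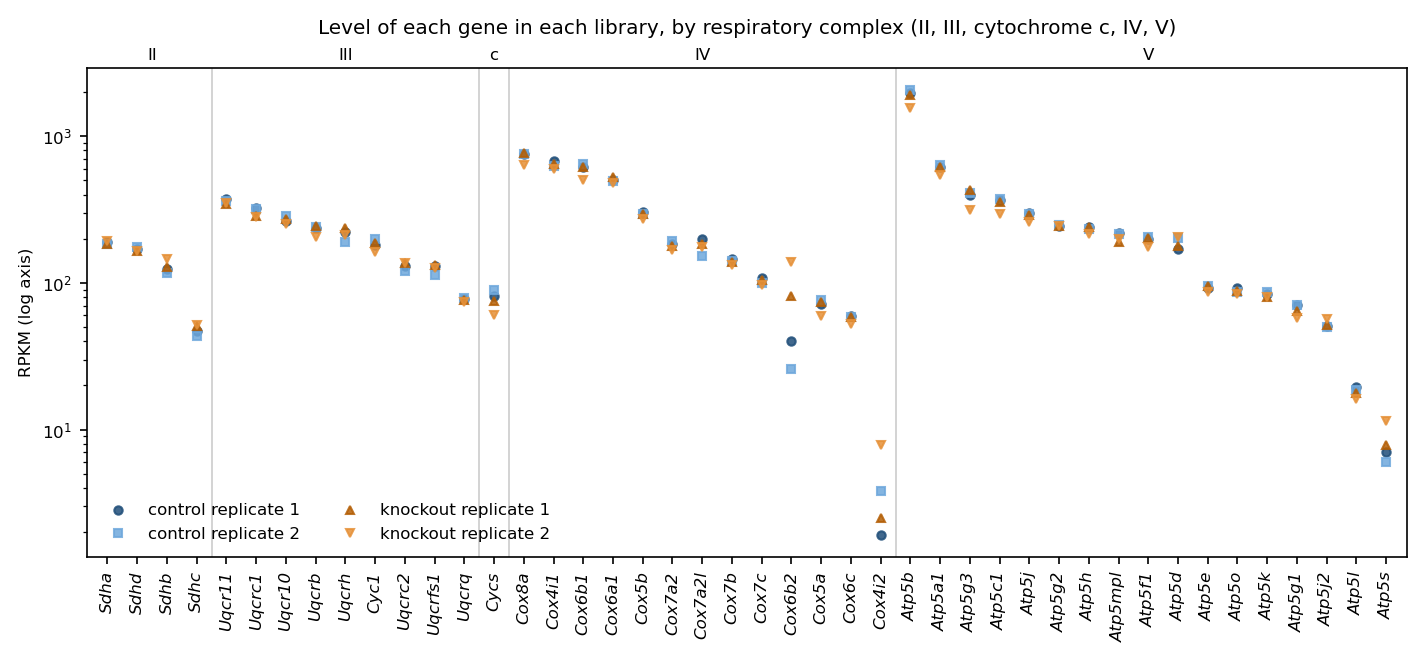
Level of each of the 44 genes in RPKM (log y axis) in control replicates 1 and 2 (blue circle and square) and knockout replicates 1 and 2 (orange triangles), grouped by complex and ordered by mean within it. The symbols lie almost on top of each other except for Cox6b2, Cox4i2 and Atp5s; Atp5b is highest with a mean of 1873 RPKM and Cox4i2 lowest with 4.02 RPKM.

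Several complex IV subunits exist as isoforms encoded by separate genes. Cox6b1 is the isoform of most tissues, and Cox6b2 is known for its expression in testis; both encode the small subunit on the intermembrane-space side that helps hold the enzyme's dimer together. Cox6b2 (ENSMUSG00000051811, chromosome 7, 4751792 to 4753094, minus strand, mm10 coordinates) had 40.3 and 26.0 RPKM in control and 81.1 and 140 RPKM in knockout. Every knockout value was above every control value, and within both groups the replicates lay far apart. The mean rose from 33.2 ± 10.2 to 110 ± 41.5 RPKM (SD, n = 2 each; log2 fold change 1.69, SE 0.19, adjusted p = 6.3e-16), above 99.5% of the fold changes of all tested genes. Cox6b1 (chromosome 7, 30616861 to 30626151, minus strand) stood at 621 and 646 RPKM in control and 613 and 505 RPKM in knockout (-0.19, SE 0.16, adjusted p = 0.482). Cox6b2 was thus the minor isoform in all 4 libraries, and its share of the summed pair was 6.10% and 3.87% in control and 11.7% and 21.7% in knockout. The shares did not overlap, but with 2 libraries a group a two-sided exact permutation test cannot give less than p = 0.333, the value it gave here (0.6 after adjustment over 18 sums, ratios and shares).

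The Cox6b2 call depended on the setting, including whether knockout replicate 2 was kept, though the direction did not in any setting run. Its adjusted p was 0.118 after rescaling (1.34), 0.185 with quantile normalization (1.58) and 0.0429 by voom on the rescaled reads (1.37). It was 0.103 when only genes averaging 50 RPKM or more were fitted (chosen after seeing the data). Without knockout replicate 2 the log2 fold change was 1.30. In the main fit limma took each gene's spread from the trend over all genes, so p-values of genes with distant replicates come out too small. The weight of that trend (prior degrees of freedom) was infinite there. It was 3.83 with rescaling, 2.91 with quantile normalization, 4.29 with the 50 RPKM filter and 6.19 by voom. Scaling and this weight were not tested apart. Of 7 stroma and endothelium markers, 6 were called higher. The 7 took 0.0737% and 0.0603% of reads in control, 1.10% in knockout replicate 1 and 0.314% in knockout replicate 2. Megakaryocyte markers, 3 of 5 called higher, took 0.0412%, 0.0408%, 0.0532% and 0.0946% of reads in the same order, and stem cell gate markers, 2 of 7 called higher, took 0.0498%, 0.0536%, 0.0714% and 0.0885%. Both lists were highest in knockout replicate 2, which was common in these data. The median of all tested genes against the control mean was 0.12 in knockout replicate 1 and 0.50 in knockout replicate 2. Assembly factors of the complexes, for example, took 0.120% and 0.112% of reads in control and 0.126% and 0.155% in knockout. The part of any of these marker lists in the Cox6b2 rise was not tested.

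Cox6b1 and Cox6b2 reads can be told apart by sequence: the longest run of bases common to their longest transcripts was 14, and 0 of 536 stretches of 50 bases in Cox6b2 occur in any other annotated transcript. Reads behind the values numbered 1322 and 960 in control and 2065 and 3566 in knockout. The nearest tested neighbour, Kmt5c, a histone methyltransferase gene 4278 bases away, stood at 11.9 and 13.1 RPKM in control and 13.2 and 18.7 RPKM in knockout (0.31, SE 0.26, adjusted p = 0.471), at the median of all genes. Fam71e2 lies 132 bases upstream and is not analysed here.

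**Figure D3:**
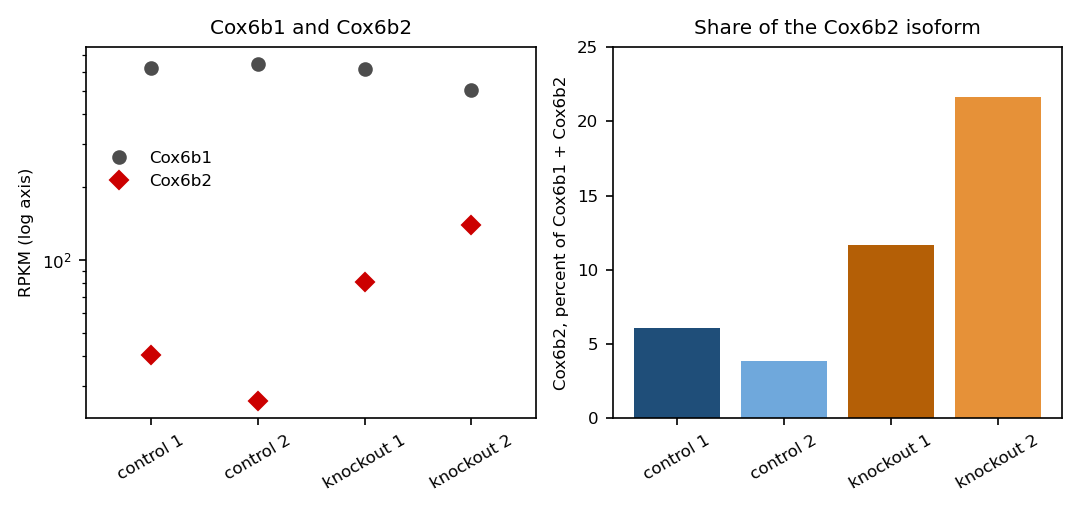
Left, Cox6b1 (grey circles) and Cox6b2 (red diamonds) in RPKM (log y axis) in each of the 4 libraries. Right, Cox6b2 as a percent of the Cox6b1 plus Cox6b2 RPKM in each library (bars from 0); the share is 6.10% and 3.87% in the control and 11.7% and 21.7% in the knockout libraries, while Cox6b1 stays between 505 and 646 RPKM.

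The sequence before the start site of the called isoform is shown beside that of its ubiquitous partner, of Cycs, the lowest gene, and of Cox6a1, a complex IV gene with a fold change near 0 and several matches to a respiratory motif. RefSeq promoter windows on GRCm38.p6 (250 bases before to 50 after the start site) were found for 34 of the 44 genes. Each line gives the longest run of upstream bases outside annotated exons of protein-coding genes, 5′ to 3′ on the gene's own minus strand. For Cox6b2 the more distant upstream bases, from the Fam71e2 exon on, were left out. Capitals mark matches on either strand to GCGCANGCG (NRF1, a nuclear respiratory factor) or GGGCGG (SP1). The stretches are chr7:4753095-4753225 for Cox6b2, chr7:30626152-30626364 for Cox6b1, chr6:50566570-50566819 for Cycs and chr5:115348982-115349208 for Cox6a1.
Cox6b2: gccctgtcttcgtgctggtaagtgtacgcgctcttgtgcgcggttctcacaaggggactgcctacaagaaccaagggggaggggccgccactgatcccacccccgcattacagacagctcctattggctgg
Cox6b1: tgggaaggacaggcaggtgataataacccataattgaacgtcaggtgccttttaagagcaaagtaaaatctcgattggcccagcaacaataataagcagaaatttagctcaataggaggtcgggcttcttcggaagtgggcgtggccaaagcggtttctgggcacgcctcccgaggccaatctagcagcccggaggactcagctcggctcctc
Cycs: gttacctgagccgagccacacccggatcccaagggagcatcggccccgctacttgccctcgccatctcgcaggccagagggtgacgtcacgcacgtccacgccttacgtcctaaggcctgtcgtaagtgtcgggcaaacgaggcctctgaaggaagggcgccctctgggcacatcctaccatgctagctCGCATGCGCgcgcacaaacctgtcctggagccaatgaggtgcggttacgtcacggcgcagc
Cox6a1: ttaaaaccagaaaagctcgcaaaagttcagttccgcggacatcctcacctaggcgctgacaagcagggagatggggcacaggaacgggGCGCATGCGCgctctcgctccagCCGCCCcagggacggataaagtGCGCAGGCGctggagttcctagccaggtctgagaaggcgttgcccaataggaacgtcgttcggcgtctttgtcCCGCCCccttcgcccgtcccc

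Neither Cox6b line holds a match to NRF1, SP1, ETS (CCGGAAG, the site of the GABP respiratory factor) or YY1 (AAGATGG). In the rest of its window Cox6b1 has 1 ETS match, after the printed part. Cox6b2 has 1 SP1 match, upstream of the printed part and among the bases left out. The Cox6b2 window holds 10 CpG dinucleotides, Cox6b1 17 and Cycs 32, where the median was 19.5 over the 34 genes and 13 over 17492 protein-coding genes. Cox6a1 carries 3 NRF1 matches, of which the first 2 overlap on opposite strands, and Cycs carries 1. Counting the first listed window of each gene (3 of the 34 have 2 windows), NRF1 matched in 12 of the 34 (35.3%, against 8.83% of protein-coding genes) and ETS in 11 (32.4% against 11.9%), while YY1 matched in 3 (8.82% against 6.37%) and SP1 in 14 (41.2% against 46.3%). Counting either window, the numbers were 13, 12, 4 and 14 in that order, with no background counted the same way. A match is a string of letters and not a bound site. As a description, the median log2 fold change was -0.07 for the 12 genes with NRF1 and -0.08 for the 22 without, and -0.06 and -0.08 with and without ETS.

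In the other isoform pairs of complex IV no gene was called. Cox4i1, the common regulatory subunit, had -0.07 (SE 0.16, adjusted p = 0.754). Cox4i2, the isoform known from lung and from low oxygen, was the least abundant of the 44, with 79 to 252 reads, at 1.92 and 3.78 RPKM in control and 2.51 and 7.88 RPKM in knockout. Its groups overlapped (0.58, SE 0.34, adjusted p = 0.359), and without knockout replicate 2 the value was -0.09. The Cox4i2 share of its pair was 0.281% and 0.597% in control and 0.385% and 1.30% in knockout. Cox6a1 stood at 502 and 497 RPKM in control and 524 and 482 RPKM in knockout (0.01, SE 0.16, adjusted p = 0.97). Cox7a2 had -0.12 (SE 0.17, adjusted p = 0.645) and Cox7a2l, known as a factor that joins complexes III and IV into supercomplexes, 0.05 (SE 0.17, adjusted p = 0.847), with values of 199 and 153 RPKM in control and 185 and 175 RPKM in knockout. For Cox6a1 and Cox7a2l the sign turned after rescaling, to -0.35 and -0.31.

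Complex V had a median of -0.10 and summed to 5139 and 5287 RPKM in control and 5052 and 4403 RPKM in knockout, with the knockout sums below both controls (exact permutation p = 0.333, the smallest possible). Atp5b, the catalytic beta subunit and the most abundant of the 44, stood at 1967 and 2064 RPKM in control and 1904 and 1557 RPKM in knockout. Both knockout values were lower than both controls (-0.23, SE 0.17, adjusted p = 0.433), without a call. The alpha and gamma subunit genes Atp5a1 and Atp5c1 lay on the same side at -0.11 and -0.19, and the delta and epsilon genes Atp5d and Atp5e overlapped at 0.05 and -0.05. In the stalk and membrane part, Atp5g1, Atp5j, Atp5k, Atp5l and Atp5mpl lay below both controls, Atp5j2 above, and Atp5f1, Atp5h, Atp5o, Atp5g2 and Atp5g3 overlapped. Atp5s, which encodes a coupling-factor B protein and not a core subunit, stood at 7.05 and 5.99 RPKM in control and 7.80 and 11.4 RPKM in knockout (0.48, SE 0.31, adjusted p = 0.393).

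The c ring of the ATP synthase, which turns as protons pass, is built from a single mature protein that Atp5g1, Atp5g2 and Atp5g3 all encode with different targeting peptides. Atp5g3 had the highest RPKM of the 3, with 399 and 407 RPKM in control and 431 and 316 RPKM in knockout (-0.13, SE 0.16, adjusted p = 0.598). Its lead over Atp5g1 rests on the lengths used, 862 bases for Atp5g3 and 4715 for Atp5g1. Reads of Atp5g3 numbered 19275 and 22169 in control and 16167 and 11872 in knockout. Those of Atp5g1 numbered 18710 and 21008 in control and 13233 and 11835 in knockout. Atp5g2 differed by -0.0033 on the log2 scale (SE 0.16, adjusted p = 0.989), with all 4 libraries between 242 and 249 RPKM. Atp5g1 lay below both controls without a call, at 70.8 and 70.5 RPKM in control and 64.5 and 57.5 RPKM in knockout (-0.21, SE 0.19, adjusted p = 0.487). By RPKM, and so by these lengths, the Atp5g1 share of the 3 was 9.94% and 9.71% in control and 8.70% and 9.32% in knockout. The Atp5g2 and Atp5g3 shares overlapped between the groups. No run of more than 13 bases was common to any 2 of these 3 transcripts, so their reads can be told apart from each other. Of the 50-base stretches, 11.6% in Atp5g1 and 14.8% in Atp5g2 also occur in transcripts of other annotated genes, and 0 in Atp5g3.

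**Figure D4:**
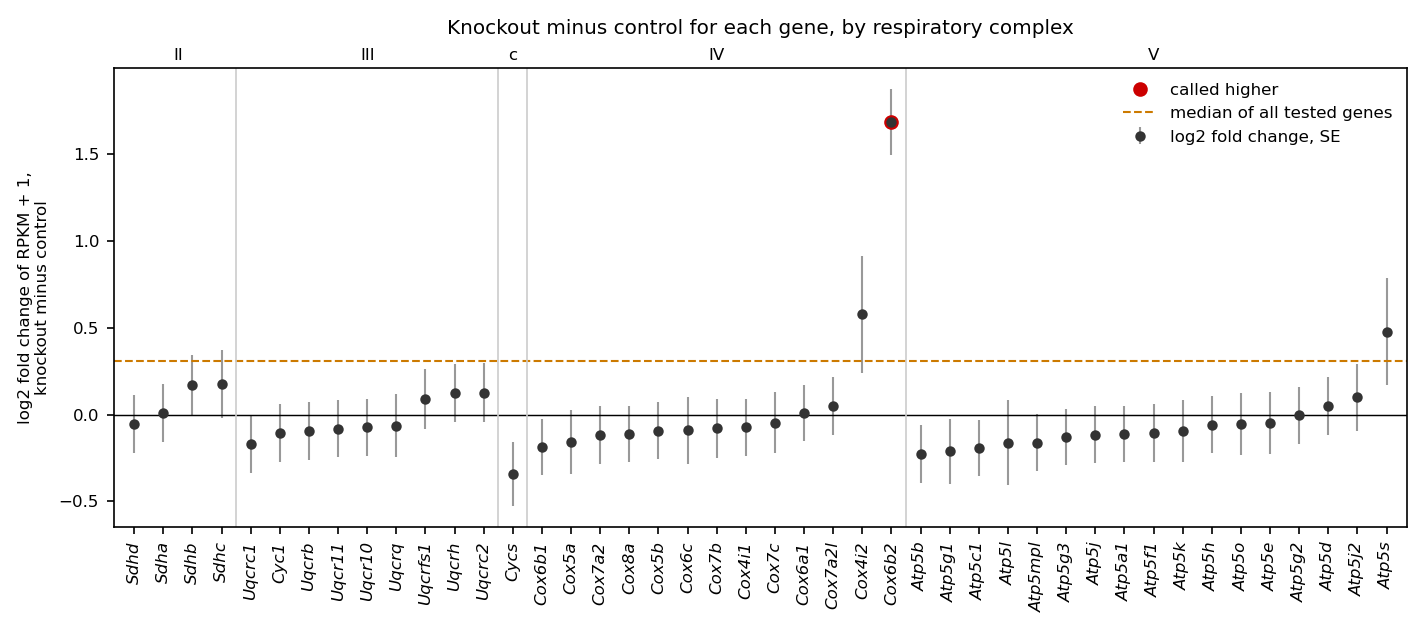
Log2 fold change of RPKM + 1 (knockout minus control, y axis) with its SE for each of the 44 genes, grouped by complex and ordered within it; the dashed line is the median of all tested genes, 0.31. Cox6b2 at 1.69 is the sole called gene, and 41 of the 44 lie below the dashed line.

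The balance between complexes was compared through sums. The log2 ratio of summed complex II to complex V RPKM was -3.27 and -3.34 in control and -3.26 and -2.98 in knockout, and that of complex III to complex V was -1.40 and -1.47 in control and -1.40 and -1.29 in knockout. Complex IV to complex V gave -0.48 and -0.56 in control and -0.46 and -0.40 in knockout. Complex II to complex III gave -1.87 and -1.88 in control and -1.86 and -1.70 in knockout. Before rounding, the knockout values of each of these 4 ratios lay above the control values, mostly through knockout replicate 2, and each exact permutation p was 0.333. The fifth ratio, complex II to complex IV, overlapped, at -2.79 and -2.78 in control and -2.80 and -2.58 in knockout (exact permutation p = 1). When knockout replicate 1 was left out, 8 of the 44 were called, Cox6b2, Cox4i2 and Atp5s higher and Cox6b1, Atp5b, Atp5c1, Atp5g3 and Cycs lower; that setting called 6375 of all genes higher and 530 lower, with a lone knockout library assumed to vary like the controls.

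Levels between genes depend on the length by which reads were divided. The deposited values fit division by the longest annotated transcript, which for 5 of the 44 was over 2 times the length of the APPRIS principal transcript: Atp5l, Cox6c, Atp5e, Cox5a and Atp5j2. Atp5l, the g subunit, has a longest transcript of 6310 bases and a principal one of 544, and its mean of 18.0 RPKM would be 209 RPKM on the latter, moving it from rank 42 to rank 22. Cox6c would move from 57.1 to 235 RPKM and Atp5e from 92.1 to 371 RPKM. Without Cox4i2, Cox6b2 and Atp5s, the ratio of highest to lowest level within complex IV was 12.8 with the deposited lengths and 5.44 with the principal ones, and within complex V 104 and 28.4. Within complex III it went the other way, from 4.65 to 6.32, and within complex II it was 3.92 with both. Of the genes kept in complex V, the lowest by principal length was Atp5g1, at 65.8 RPKM. Its length stayed at 4715 bases, since the longest principal transcript of a gene was used. Fold changes within a gene keep the same length on both sides. Across the 44 genes Spearman's rho between longest transcript length and RPKM was -0.37, a description across genes, which are not replicates.

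Sequence shared with other genes touches some of the levels. No 50-base stretch was shared with another annotated transcript for 21 of the 44, and the largest share was 34.9%, for Atp5o with the antisense gene Gm15976. Uqcrc2 shares 24.8% with Pdzd9. Since the counting is not stated to use strand, reads of such pairs cannot be told apart.

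Genes that work with these complexes were then counted, from lists chosen with earlier results of these data known; 0 were called in each. The 6 mitochondrially encoded subunits of complexes III to V had a median of -0.29, with 4 of 6 below both controls (against 7.38% of all tested genes). All 6 averaged above 200 RPKM. Among the 349 tested genes of at least 200 RPKM, 155 (44.4%) lay below both controls, and the median was -0.14. The ATP synthase subunit genes mt-Atp6 and mt-Atp8, which overlap on the mitochondrial genome, had the smallest p-values, at -0.42 (adjusted p = 0.146) and -0.38 (adjusted p = 0.221). Of these, mt-Atp8 lay below both controls, and the mt-Atp6 groups overlapped. The partner subunits from both genomes lay on the same side of 0 by their medians, and the summed mitochondrial ones stood at 16170 and 15751 RPKM in control and 15050 and 12266 RPKM in knockout. The 7 mitochondrially encoded subunits of complex I had a median of -0.18, with mt-Nd4l at -0.31 (adjusted p = 0.365) and mt-Nd1 at -0.27 (adjusted p = 0.413).

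Nuclear complex I subunits had a median of 0.11 over 38 of 39 genes, with 20 above both controls (52.6%, against 55.5% of all tested genes) and 4 below (10.5%, against 7.38%). After rescaling the median was -0.24 and all 38 were below 0, as the median of complexes II to V was, so the difference in sign was gone. Ndufs1 and Ndufs4 stood at 0.28 and 0.27 (adjusted p = 0.428 and 0.442). These were -0.06 and -0.08 after rescaling. Ndufa4, which has a complex I name but is known as a subunit of complex IV, stood at -0.13. The 17 genes for citric acid cycle enzymes and pyruvate dehydrogenase had a median of 0.10, led by Suclg2 (0.30) and Idh3b (0.25), at adjusted p-values of 0.415 and 0.423, and a median of -0.24 after rescaling with all 17 below 0. Sdha to Sdhd belong to that cycle too, outside this list.

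Assembly factors, most of which help to insert heme, copper and subunits into the enzymes and leave the finished complex, lay higher than the subunits. The list is broader than that description. It also holds Atpif1, the ATP synthase inhibitor (-0.07), Lrpprc (0.09) and Taco1 (0.31). The 37 of 40 that were tested had a median of 0.33, close to the 0.31 of all genes, with 28 above (75.7%, against 55.5% of all tested genes) and 0 below both controls (against 7.38%). After rescaling their median was 0.02. Sdhaf4 and Sdhaf2 for complex II had 0.72 and 0.47 (adjusted p = 0.122 and 0.335), and Uqcc3 and Uqcc2 for complex III 0.42 and 0.36 (adjusted p = 0.308 and 0.331). For complex IV the copper chaperone Cox17 had 0.56 and the insertase Oxa1l 0.40 (adjusted p = 0.312 and 0.363), and for complex V Tmem70 had 0.49 and Atpaf2 0.33 (adjusted p = 0.218 and 0.412). Regulators of mitochondrial gene expression (14 of 16 tested) had a median of 0.36, with Gabpb1, a subunit of the ETS-site factor, and Tfam, the mitochondrial DNA packaging factor, both at 0.51 (adjusted p = 0.314 and 0.331). These lists differ in abundance as well as in role, and the difference between them and the subunits was not tested.

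**Figure D5:**
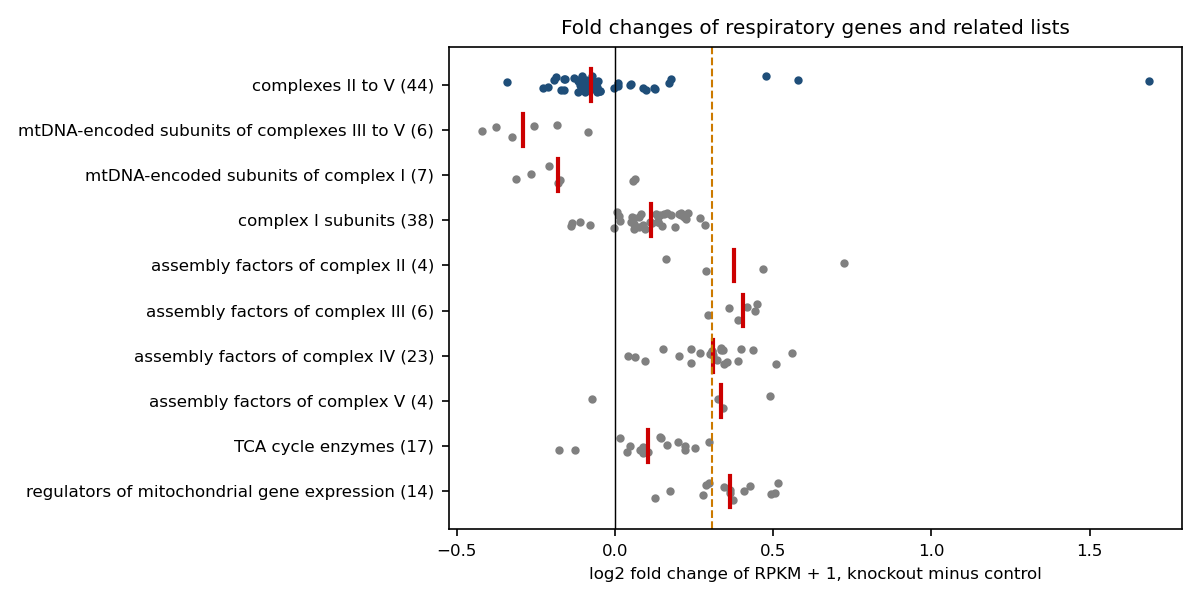
Log2 fold change of RPKM + 1 (knockout minus control, x axis) of each tested gene (dots) in the 44 nuclear genes of complexes II to V and in the related lists, with the number tested in brackets; red bars are medians and the dashed line is the median of all tested genes, 0.31. Subunits encoded by mitochondrial DNA have medians of -0.29 and -0.18, complexes II to V -0.08, complex I 0.11, and the 4 groups of assembly factors between 0.31 and 0.40.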

How the data were processed

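RNA was measured in 2 control and 2 knockout libraries. The authors deposited RPKM values per gene, a unit identified from the values: multiplied by the length of the longest GENCODE M21 transcript they gave whole reads, within a tolerance of 0.1, for 99.4% of values. A gene without reads stands at 0.001. Reads were placed on mm10, per the submitters' processing notes; aligner, counter and multimapping: not given in the sources used here. Recovered reads numbered 55702496 and 62853208 in control and 43240020 and 43198649 in knockout.

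Tests used limma 3.58.1 (R 4.3.3) on log2(RPKM + 1), with a mean-variance trend, over 11742 genes averaging 1 RPKM or more, with genotype as the sole term (2 residual degrees of freedom), with Benjamini-Hochberg adjustment. Fold changes are knockout minus control and understate low genes. Errors are SDs (n = 2) or SEs. The fit was run on simulated data with known changes. That simulation had the same spread in all libraries and no shift between them, unlike these data, so it does not bear on the calls here. Sums and shares had two-sided exact permutation tests.

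The members and lists were chosen with earlier results of these data known. Named were Ddx21, called members, the most abundant, highest and lowest member per complex, isoform pairs, and of each related list the 2 smallest p-values; others named with values were chosen after these were seen. Replicate libraries differed beyond sampling noise (chi-square per degree of freedom 48.9 and 152). Alternatives were TMM-type rescaling, quantile normalization, a pseudocount of 0.1, other filters, no trend, voom on recovered reads, a replicate block and leaving out each library. Voom used the TMM-type factors too, so it was not an alternative free of rescaling.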

Additional observations from a re-analysis of the deposited data

How the results depend on the processing

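With the deposited scaling limma called 391 genes higher and 101 lower, and those counts moved with the processing. TMM-type rescaling gave 1 and 0 (977 and 882 at an unadjusted p under 0.05) and quantile normalization 0 and 0 (869 and 879 unadjusted). Voom on recovered reads with the same TMM-type factors gave 50 and 22. A filter at a mean of 10 RPKM gave 188 higher and no trend 52 lower. A filter at 50 RPKM, chosen after seeing the data, gave 0 and 0 (104 and 105 unadjusted). Leaving out a library gave 27 to 6375 higher and 5 to 530 lower (33 and 5 once control replicate 1 was dropped, 27 and 10 for control replicate 2, 6375 and 530 for knockout replicate 1, 98 and 14 for knockout replicate 2). Among the 44 respiratory genes the 1 higher call became 0 with rescaling, quantile normalization and the filter at 50 RPKM, and ranged from 0 (without knockout replicate 2) to 3 (without knockout replicate 1) when a library was left out, with 0 to 5 lower; related lists then had 0 to 43 higher and 0 to 7 lower. The median of the 44 was -0.43 with rescaling, -0.0083 with quantile normalization, -0.40 by voom, and -0.12 to -0.017 without a library. The cause was not tested.

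Signs of small values changed for 10 of the 44 genes with rescaling and the same 10 by voom, which used the same scaling factors. They changed for 11 with quantile normalization, and for 13 in at least 1 of the fits that leave out a library (10 of them without knockout replicate 2). Among the genes named by the rule for named genes, those turned by rescaling and by voom were Cox6a1 (-0.35 and -0.31), Cox7a2l (-0.31 and -0.28), Sdha (-0.34 and -0.32), Sdhc (-0.17 and -0.15), Uqcrc2 (-0.23 and -0.20), Ndufs1 (-0.062 and -0.055), Ndufs4 (-0.077 and -0.072), Atpaf2 (-0.016 and -0.013), Suclg2 (-0.048 and -0.044) and Idh3b (-0.098 and -0.082), of which 5 are respiratory genes of the 44; the other 5 of the 10 were Sdhb, Uqcrfs1, Uqcrh, Atp5d and Atp5j2. The complex II sum differed by -112 RPKM with rescaling. Of the genes so named, quantile normalization turned Atp5g2 (0.084), Cox4i1 (0.092), Cox8a (0.085), Uqcr11 (0.070) and Sdhc (-0.015). Without a library, ranges of genes so named crossed 0 for Atp5g2 (-0.023 to 0.016), Atp5g3 (-0.35 to 0.096), Cox4i2 (-0.092 to 1.25), Cox6a1 (-0.050 to 0.070), Cox7a2l (-0.14 to 0.24), Cox8a (-0.25 to 0.027), Sdha (-0.020 to 0.041) and for the complex IV sum (-301 to 47.9 RPKM). Cox6b2 stayed positive in every alternative run.

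Replicate numbers did not pair the libraries: deviations of same-numbered libraries correlated at 0.0668 across 11742 genes. A fit with the replicate number as a block called 175 higher and 64 lower, with Cox6b2 at 1.69 (adjusted p = 8.89e-13). With 2 libraries a group, small differences are not detectable: the SEs of the 44 run from 0.16 to 0.34. These SEs come from the trend over all genes and not from each gene's own replicates. For genes with close replicates they can exceed the gene's own spread.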
